A study of Mus musculus with 24 samples.

Results

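The 24 libraries of the series were compared by replicate number: the 12 libraries labelled replicate 1 against the 12 labelled replicate 2, paired within each of 12 cell lines, which takes in 24 of 24 libraries. All were made from F121/9, a female F1 hybrid mouse embryonic stem cell line with one 129/Sv and one CAST/EiJ genome, so reads that cover a strain difference can be assigned to the 129S1 or the CAST allele. The lines belong to 5 families, each named for a recombination (d3, d6, i7, i12 and i10), with a parental line (genotype control) and 1 or more recombined lines, each grown from 1 clone. These are clones 12 and 21 in d3, clone 16 in d6, clones 7 and 12 in i7, clone 10 in i12 and clone 18 in i10. All lines, parental ones included, were kept serum-free on gelatin with leukemia inhibitory factor (LIF), 1 μM of the MEK inhibitor PD0325901 and 3 μM of the GSK-3β inhibitor CHIR99021, and were split every 2 days. The labels describe biological duplicates but not whether replicates differ in thawing, culture, day of harvest, library preparation or sequencing run, so these cannot be told apart here.

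Embryonic stem cells in this medium are held in the naive state: the MEK inhibitor blocks the ERK pathway, the GSK-3β inhibitor keeps β-catenin stable and LIF acts through STAT3. Several general programs respond to how a culture is fed, how dense it is and how it is handled. The transcription factor ATF4 is translated when amino acids are short or the endoplasmic reticulum is loaded, and it turns on amino acid synthesis, amino acid uptake and tRNA charging genes. HIF factors accumulate at low oxygen and turn on glycolysis genes, p53 responds to DNA damage and other stress with genes for cell cycle arrest and cell death, and MYC drives ribosome production.

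The table held 3286819 to 15581094 counts per library, with d3 the deepest family and i10 and i12 the shallowest. Replicate 1 was deeper than replicate 2 on average in d3, d6, i12 and i10 and shallower in i7. The defining genes of embryonic stem cells were high throughout: the 6 tested markers together held 4388 to 7546 CPM (counts scaled to the library total). The 11 tested primitive endoderm markers held 347.9 to 668.9 CPM, the 4 tested fibroblast markers 6.04 to 32.4 CPM and the 4 tested neural ones 70.9 to 146.1 CPM. The neural sum was 72.2 to 80.4 CPM in replicate 1 and 123.6 to 130.6 CPM in replicate 2 of d3. It was 131.3 to 146.1 CPM against 75.5 to 94.4 CPM in i12, and 117.5 to 121.7 CPM against 80.4 to 86.4 CPM in i10. The mean log2 level of these 4 markers, in which each counts alike, overlapped between replicates in all of these families. Tubb3, a member of the neural list, was lower in replicate 2 of i12 and i10 (values below). The fibroblast sum was 13.0 to 20.3 CPM in replicate 1 and 21.5 to 27.6 CPM in replicate 2 of d3, 12.4 to 12.9 CPM and 17.6 to 19.5 CPM in d6, and 12.8 to 13.2 CPM and 6.04 to 8.29 CPM in i10. The mean log2 level of the fibroblast markers was also higher in replicate 2 of d3 and d6 but overlapped between replicates in i10. The 7 tested trophectoderm markers summed to 76.9 to 82.3 CPM and 99.4 to 122.6 CPM in d3. Their sum was also higher in every replicate 2 than in every replicate 1 library of d6, i12 and i10. Their mean log2 level went the other way in d3, at 2.80 to 2.88 in replicate 1 and 2.00 to 2.50 in replicate 2. It was also lower in replicate 2 of i12, at 2.69 to 2.77 and 2.25 to 2.35, and overlapped between replicates in d6 and i10. The trophectoderm markers were therefore not higher as a group. The mean log2 level of the primitive endoderm markers was 2.85 to 2.88 in replicate 1 and 2.46 to 2.73 in replicate 2 of d3. In d6 it was 3.03 to 3.05 and 2.62 to 2.70, and it overlapped between replicates in i7, i12 and i10. Their sum overlapped in d3 and i7 but was higher in replicate 2 of d6, i12 and i10, so they too went no single way. The part of other cell types in the results below was not tested, and in bulk RNA fewer cells of a type and less RNA per cell cannot be told apart. One library stood apart. In the d3 parental line the replicate difference ran with transcript length (r = -0.48 across 9323 genes, against -0.15 to 0.08 in the other 11 lines), with a median log2 difference of 0.43 in the 25% of genes with the shortest transcripts and -0.41 in the 25% with the longest. Its replicate 2 library also held the lowest mitochondrial share of d3, 3.16% against 6.11% in its replicate 1 library, and several d3 lists are given with and without this line.

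Replicate number within family carried 28.9% of the variance of log2 levels, against 49.2% between families, 13.0% between lines of a family and 8.97% in the residual. Per degree of freedom, replicate number held 4.50 times the residual variance and line 1.45 times, so replicate number separated libraries more than line within a family did. The difference of replicate 2 minus replicate 1 was then estimated for each family in 1 edgeR quasi-likelihood fit with a term for every line, over 16253 genes, and a gene was called where the p adjusted by Benjamini-Hochberg fell below 0.05. In d3, 2368 genes were higher in replicate 2 (14.6% of those tested) and 2287 lower (14.1%). In d6 there were 1684 higher (10.4%) and 1506 lower (9.27%), in i12 1712 (10.5%) and 1440 (8.86%), and in i10 1556 (9.57%) and 1315 (8.09%). In i7, 356 genes were higher (2.19%) and 345 lower (2.12%). These shares are the background for the gene groups described below. Fitted on its own libraries alone, which gives each family its own estimate of the spread, d3 had 1542 called genes, d6 3755, i7 2713, i12 4783 and i10 5132. The order of the families was thus not the same and d3 came below i7. A family alone leaves only 1 or 2 residual degrees of freedom, so these estimates of the spread are weak. The counts also depended on single lines. In all, d6 had 3190 called genes, 524 without clone 16 and 1194 without its parental line. For i12 the count was 3152, 698 without its parental line and 1223 without clone 10, and for i10 it was 2871, 561 without its parental line and 1003 without clone 18. For i7 it was 701, and 239, 166 and 367 without the parental line, clone 7 and clone 12. Without the d3 parental line the counts were 4950 in d6, 1854 in i7 and 4382 in i10.

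A joint test found 7505 genes (46.2%) with a replicate difference in at least 1 family. The 5 families' differences were unequal for 4017 genes (24.7%), and 560 genes were called higher in one family and lower in another. Of these 560, 207 were pseudogenes, whose levels are uncertain in these data. The 4017 became 6585 without the d3 parental line, 2449 without the i7 parental line and 2464 without i7 clone 7. There were 637 genes called in 4 families and 31 in all 5, of which 592 and 19 had the same direction in each. The mean of the 5 differences was called for 3639 genes higher (22.4%) and 3289 lower (20.2%). By contrast, no inequality of the replicate difference between recombined and parental lines that all families share was detected. For this, edgeR called 0 genes higher (0%) and 0 lower (0%), with 754 at an unadjusted p under 0.05, and DESeq2 called 0. Leaving out the filter on low counts gave 16. The test used a common term for all families, so it cannot show an inequality within a single family. The length trend of the d3 parental line is such a case.

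Lines of a family moved together. Across the 10739 genes whose mean count reached 50, the replicate differences of 2 lines of the same family had a Pearson's r of 0.38 to 0.79 (9 pairs, median 0.75). The lowest of these, 0.38 and 0.54, both involved the d3 parental line. Between families the same measure was 0.69 to 0.80 for lines of i12 with lines of i10, 0.41 to 0.74 for d3 with d6, and -0.30 to 0.34 for i7 with any other. Lines of different families share no library, but genes are not independent and share their depth in each library, so these values are descriptions. Of the 3152 genes called in i12 and the 2871 called in i10, 1949 were called in both (61.8% and 67.9%) and all 1949 had the same direction. For d3 and d6, 1992 were called in both (42.8% and 62.5%), 1975 of them in the same direction. For d6 and i7, 300 were called in both (9.40% and 42.8%) and 268 of these had opposite directions, of which 189 were pseudogenes.

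**Figure D1:**
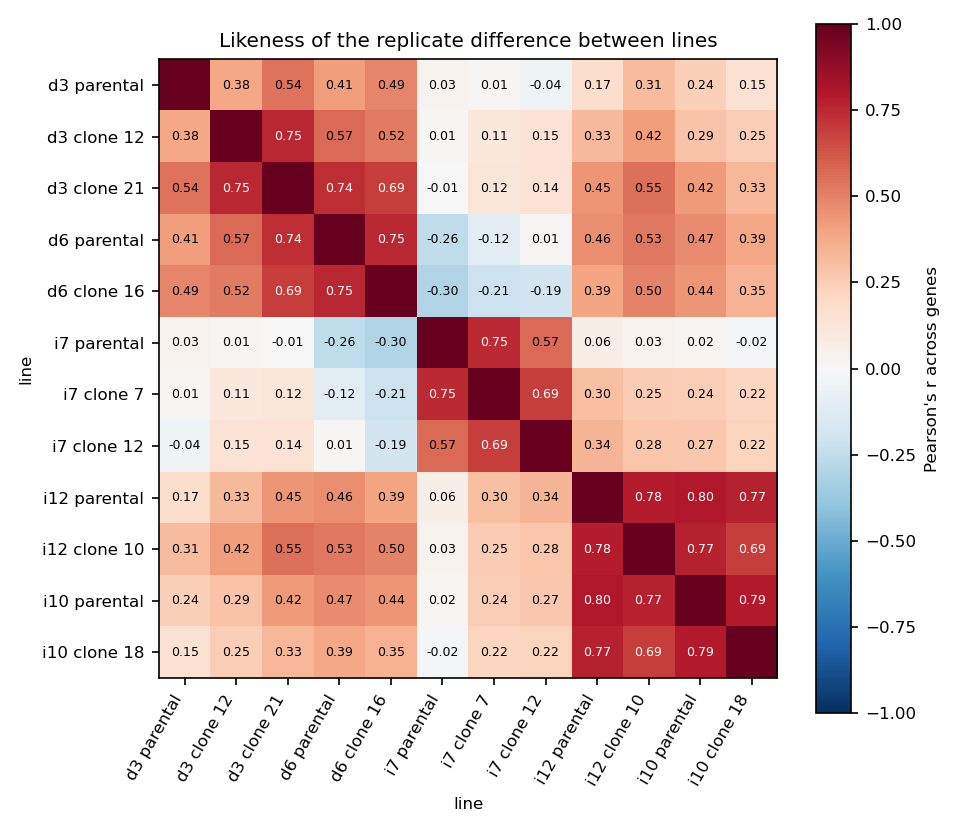
Pearson's r across 10739 genes between the replicate differences (log2, replicate 2 minus replicate 1) of each pair of the 12 lines, on both axes. The 4 lines of i12 and i10 form one block with r from 0.69 to 0.80, the lines of d3 and d6 another with lower values, and the 3 lines of i7 are like each other (0.57 to 0.75) but not like the rest.

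Genes that ATF4 controls were higher in replicate 2 of d3 and d6 and, with smaller differences, of i12. Of 32 tested members of the ATF4 list, 28 were higher (background 14.6%) and 1 lower (14.1%) in replicate 2 of d3, with a median log2 difference of 1.20 against 0.004 over all genes tested. In d6, 26 were higher (background 10.4%) and 0 lower (median 0.94). In i12, 19 were higher and 2 lower (median 0.46), in i10 4 were higher and 5 lower (median 0.01), and in i7 0 were called in either direction (median -0.10). The families' differences were unequal for 28 of the 32. On the log2(CPM + 1) scale the median over the list was 1.22, 1.03 and 1.07 in the d3 parental line, clone 12 and clone 21, so that each line showed it, and without the d3 parental line 27 members were higher in d3 and 2 lower.

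ATF4 binds a composite element with the letters TGATGNAA. Among the list members, 25 matched a RefSeq promoter of GRCm38.p6 by symbol. Of these, 9 (36.0%) held the letters on either strand in the 250 bases before the start. The share was 246 of 10426 for tested genes (2.36%) and 1056 of 27025 for all symbols with a promoter (3.91%). The list was written from genes that ATF4 is known to control, so its higher share is not a result of these data. A match is a string of letters and not a measured site. A stretch from each of the 9 members is shown, in the order of their d3 log2 differences, which run from 4.66 in Nupr1 to -0.36 in Slc7a11, so that members with the letters can be compared with how their RNA differed. Capitals mark the 8 letters of a match, which read TGATGNAA or its reverse complement TTNCATCA; Slc7a11 holds 2 matches and one is marked.
Nupr1 (chr7:126625547-126625606, minus strand): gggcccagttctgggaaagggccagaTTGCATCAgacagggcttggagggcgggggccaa
Vldlr (chr19:27216794-27216853, plus strand): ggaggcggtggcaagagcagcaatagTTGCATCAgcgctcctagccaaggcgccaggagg
Atf3 (chr1:191183410-191183469, minus strand): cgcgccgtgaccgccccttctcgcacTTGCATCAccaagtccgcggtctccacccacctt
Chac1 (chr2:119351023-119351082, plus strand): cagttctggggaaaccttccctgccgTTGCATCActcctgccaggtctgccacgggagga
Pck2 (chr14:55540137-55540196, plus strand): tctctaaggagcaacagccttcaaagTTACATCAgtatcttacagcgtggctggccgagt
Gars (chr6:55037945-55038000, plus strand): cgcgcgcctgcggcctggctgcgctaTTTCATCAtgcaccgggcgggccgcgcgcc
Aars (chr8:111033704-111033763, plus strand): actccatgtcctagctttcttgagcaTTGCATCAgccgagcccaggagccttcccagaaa
Asns (chr6:7693210-7693258, minus strand): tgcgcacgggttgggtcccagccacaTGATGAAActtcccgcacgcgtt
Slc7a11 (chr3:50443646-50443705, minus strand): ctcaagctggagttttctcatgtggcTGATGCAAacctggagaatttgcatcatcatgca

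Nupr1, a small stress-induced chromatin protein (chromosome 7, 126623249 to 126630861, minus strand on GRCm38), had the largest difference called higher in d3 where the mean count reached 50. Its level was 2.73, 2.32 and 2.29 CPM in the replicate 1 libraries of the d3 parental line, clone 12 and clone 21, and 63.3, 73.4 and 49.3 CPM in their replicate 2 libraries (log2 difference 4.66, SE 0.165, adjusted p 4.06e-11). In d6 the parental line and clone 16 had 6.87 and 5.41 CPM in replicate 1 and 59.2 and 49.6 CPM in replicate 2 (log2 difference 3.15, SE 0.183, adjusted p 1.01e-07). The replicates did not overlap in either family, and every replicate 2 library lay between those of clone 21 and clone 12 of d3. In i7 the parental line, clone 7 and clone 12 were at 99.3, 108 and 66.8 CPM in replicate 1 and at 96.9, 89 and 68 CPM in replicate 2, so both replicates lay within or above the replicate 2 range of d3. For i12 the values were 30.9 and 21.3 CPM and then 89.8 and 70.8 CPM (log2 difference 1.64), and for i10 24.2 and 46.4 CPM and then 65.9 and 78.6 CPM (1.08).

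Most other members were higher in d3 and d6 and varied in the remaining families. Atf3, a transcription factor of the ATF4 cascade, was at 3.64, 3.44 and 3.03 CPM in replicate 1 and 25.4, 25.4 and 25.3 CPM in replicate 2 of the 3 d3 lines (log2 difference 2.91, SE 0.148, adjusted p 2.50e-09). Trib3, a pseudokinase induced by ATF4, was at 24.1, 21.8 and 19.3 CPM and 147, 121 and 135 CPM (log2 difference 2.63, SE 0.164, adjusted p 2.30e-08). In neither gene did the replicates overlap. Both were also higher in d6 (2.63 and 2.09), while in i10 Trib3 was lower in replicate 2 (-0.85), and its 5 differences were unequal (adjusted p 9.09e-07). The secreted protein Stc2 was higher in d3 (2.24) and d6 (1.91). Vldlr, a lipoprotein receptor, was higher in d3 (3.46), d6 (2.70) and i12 (1.45). The list's metabolic members were called too: in d3 the serine synthesis genes Phgdh (1.24), Psat1 (1.02) and Psph (1.69), the mitochondrial folate enzyme Mthfd2 (1.50) and the tRNA synthetases Sars (1.43), Gars (0.96) and Aars (0.90). The cystine transporter Slc7a11, whose promoter also held the letters, went the other way, lower in d3 (-0.36), i12 (-0.71) and i10 (-0.61). Genes of protein folding in the endoplasmic reticulum were not higher as a group: of 15 tested, 1 was higher and 4 lower in d3, and the chaperone Hspa5 was lower in d3 (-0.59), i12 (-0.79) and i10 (-1.19).

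Hrk, a BH3-only cell death activator outside the list, showed the same family pattern. It was at 1.57, 1.39 and 1.72 CPM in replicate 1 and 18.9, 19.9 and 28.9 CPM in replicate 2 of d3 (log2 difference 3.83, SE 0.189, adjusted p 2.00e-09), while the i7 libraries held 94.9, 101 and 70.8 CPM and 86.4, 89.5 and 68.1 CPM. The i7 replicates overlapped and both lay above every library of the other families.

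**Figure D2:**
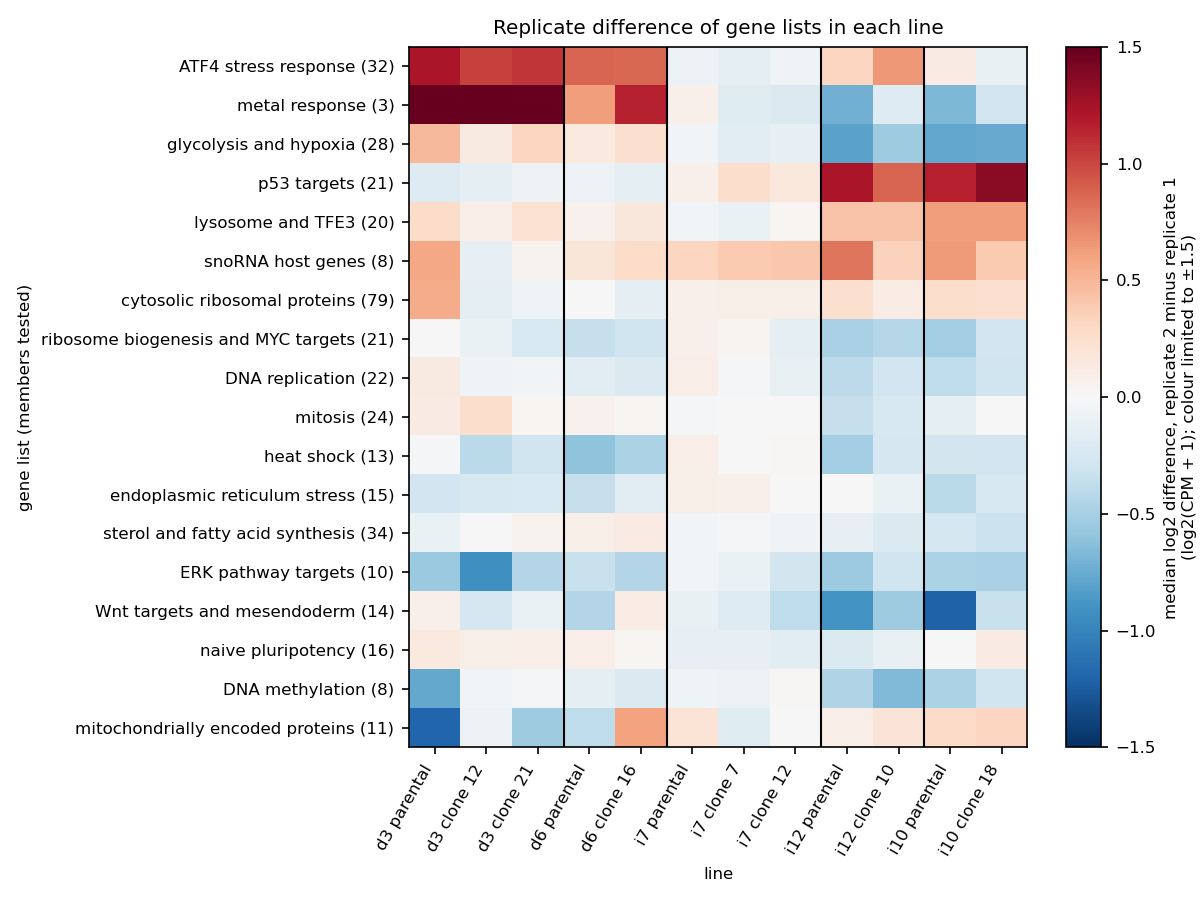
Median log2 difference of replicate 2 minus replicate 1 on the log2(CPM + 1) scale over the tested members of 18 gene lists (rows, members tested in parentheses) in each of the 12 lines (columns); red is higher and blue lower in replicate 2. ATF4 genes were higher in replicate 2 of d3 and d6 and less so of i12, p53 targets in i12 and i10, and the 3 i7 lines are pale for most lists.

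Glycolysis and hypoxia genes went opposite ways in the 2 pairs of families. Of 28 tested members, 14 were higher and 2 lower in replicate 2 of d3 (median 0.34), 9 higher and 2 lower in d6 (median 0.21), 0 and 3 in i7 (median -0.07), 2 and 16 in i12 (median -0.71) and 2 and 17 in i10 (median -0.80). Without the d3 parental line the d3 counts were 12 and 2 and the median 0.20. The families' differences were unequal for 23 of the 28. Bnip3, a mitophagy receptor and HIF target, was at 9.26, 11.6 and 8.27 CPM in replicate 1 and 28.8, 30.7 and 33.2 CPM in replicate 2 of d3 (log2 difference 1.67, SE 0.149, adjusted p 8.69e-07). In i12 it was at 10 and 6.12 CPM and 2.55 and 1.65 CPM (log2 difference -1.93, SE 0.339, adjusted p 0.00094), and in i10 at 15.3 and 8.7 CPM and 3.63 and 4.34 CPM (log2 difference -1.51, SE 0.282, adjusted p 0.00158). The replicates did not overlap in any of the 3 families, and the order was reversed between d3 and the other two. In i7 Bnip3 was lower in replicate 2 (-0.65), and in d6 higher (1.45).

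In i12 and i10 the enzymes of glycolysis itself were lower in replicate 2. This held for Pfkl (-0.92 in i12 and -1.21 in i10), Tpi1 (-1.23 and -1.55), Eno1 (-0.78 and -0.96), Pkm (-0.84 and -1.04) and Ldha (-0.94 and -1.25). It held for the glucose transporter Slc2a1 (-1.06 and -1.30) and the lactate exporter Slc16a3, which was at 38.7 and 26.1 CPM in replicate 1 and 9.37 and 3.36 CPM in replicate 2 of i10 (log2 difference -2.43, SE 0.353, adjusted p 0.000228). In d3 the enzymes called higher had smaller differences, in Pfkp (0.58), Pgk1 (0.57), Tpi1 (0.53) and Ldha (0.41), and the large differences were in other members. The angiogenic factor Vegfa was at 9.92, 9.39 and 10.2 CPM and 46.4, 47.3 and 58.4 CPM in d3 (log2 difference 2.36, SE 0.138, adjusted p 1.03e-08), and the mTORC1 inhibitor Ddit4 at 6.78, 7.01 and 6.14 CPM and 57.9, 51.5 and 69.7 CPM (log2 difference 3.15, SE 0.182, adjusted p 9.68e-09). Ndrg1, a stress-responsive gene, was at 9.43, 10.1 and 11.5 CPM and 53.4, 72.7 and 70.7 CPM (log2 difference 2.66, SE 0.132, adjusted p 2.00e-09). The replicates did not overlap in these genes. Vegfa and Ddit4 were also higher in i12 (1.68 and 2.00). Both are targets of ATF4 as well as of HIF, and the part of either factor was not tested. The respiratory chain protein Ndufa4l2, another hypoxia-induced gene, was higher in d3 (3.19) and d6 (3.30) and lower in i12 (-1.24).

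The metallothioneins, small proteins that bind zinc and copper, also split the families. Mt2 was at 10.9, 9.79 and 13.8 CPM in replicate 1 and 202, 118 and 122 CPM in replicate 2 of d3 (log2 difference 3.64, SE 0.202, adjusted p 5.83e-09) and was higher in d6 (1.89). It was lower in replicate 2 of i12, at 228 and 267 CPM and then 81.1 and 129 CPM (log2 difference -1.26, SE 0.222, adjusted p 0.000939), and of i7 (-0.69). Mt1 was higher in d3 (2.75) and d6 (0.90), with values of -0.08, -0.17 and 0.23 that did not pass in i7, i12 and i10.

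**Figure D3:**
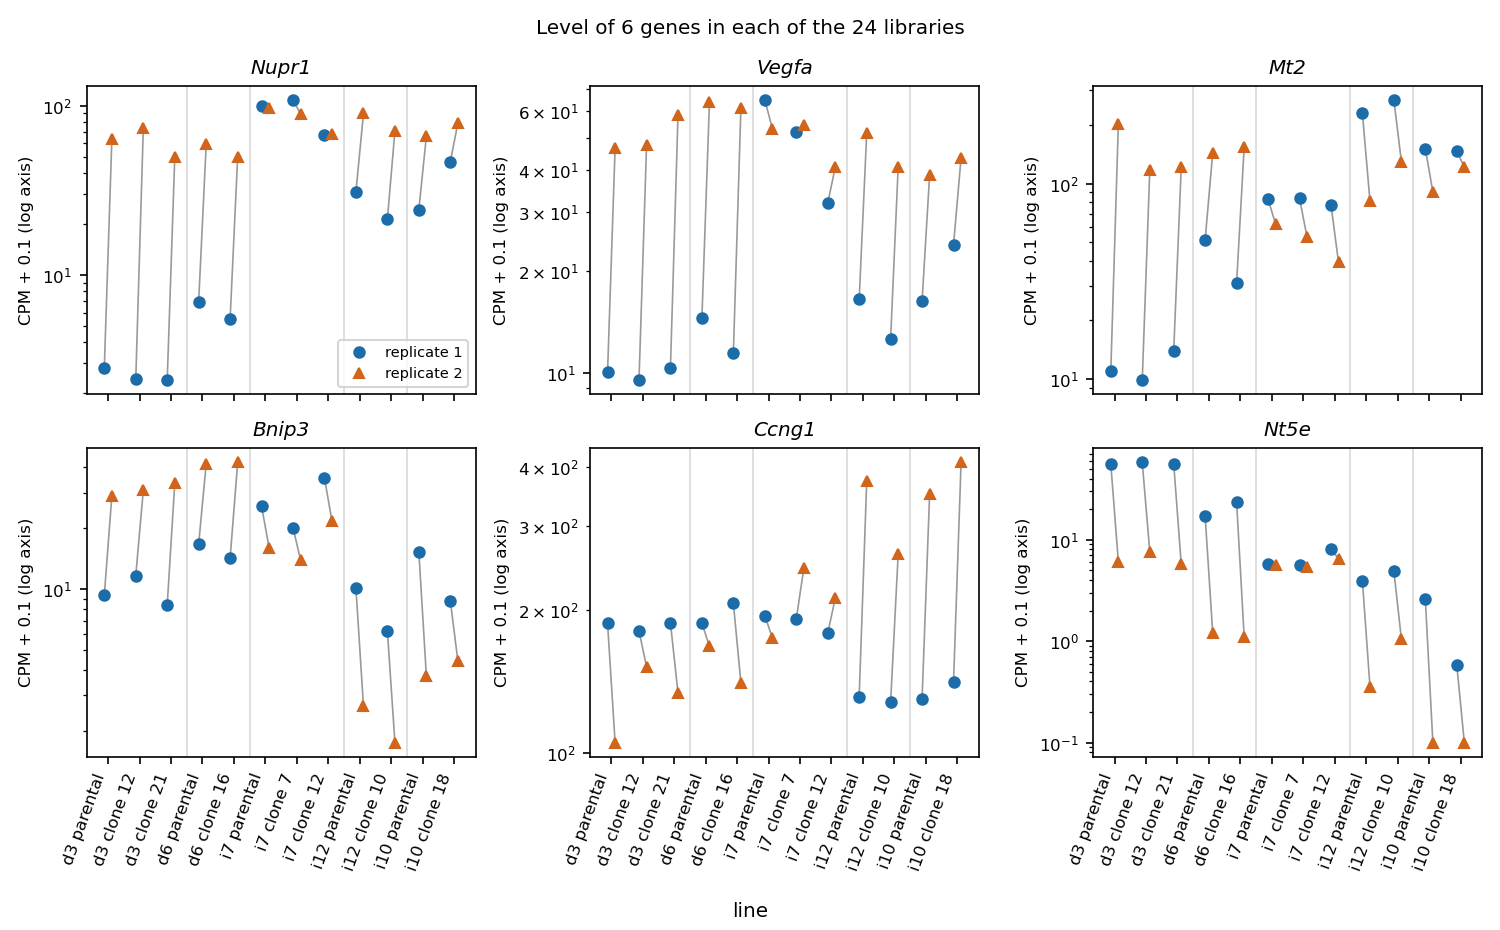
Level of 6 genes in CPM plus 0.1 (log axis) in replicate 1 (circles) and replicate 2 (triangles) of the 12 lines (horizontal axis), with a grey line between the 2 libraries of a line. Nupr1 and Vegfa were lower in replicate 1 of d3, d6, i12 and i10, Bnip3 and Mt2 reversed between d3 and i12, Ccng1 was high in replicate 2 of i12 and i10, and Nt5e was higher in replicate 1 outside i7.

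In i12 and i10 the p53 targets were higher in replicate 2. Of 21 tested, 14 were higher and 0 lower in i12 (median 1.20), and 15 higher and 0 lower in i10 (median 1.29). In d3, 2 were higher and 7 lower (median -0.13), in d6 2 and 2 (median -0.17), and in i7 0 and 1 (median 0.16). Without the d3 parental line 3 were higher and 8 lower in d3 (median -0.35). The families' differences were unequal for 15 of the 21. Ccng1, a cyclin that p53 induces (chromosome 11, 40748552 to 40755311, minus strand), was at 131 and 128 CPM in replicate 1 and 373 and 262 CPM in replicate 2 of i12 (log2 difference 1.26, SE 0.166, adjusted p 9.93e-05). In i10 it was at 130.1 and 141 CPM and 351 and 408 CPM (log2 difference 1.48, SE 0.166, adjusted p 2.68e-05), and in d3 at 188, 181 and 188 CPM and 105, 152 and 134 CPM (log2 difference -0.52, SE 0.131, adjusted p 0.00743). No replicate 1 library of i12 or i10 reached any of their replicate 2 libraries. The cell cycle inhibitor Cdkn1a was at 364 and 309.8 CPM and 850.2 and 754 CPM in i12 (log2 difference 1.25, SE 0.141, adjusted p 2.89e-05), and at 342 and 369 CPM and 721 and 790.4 CPM in i10 (log2 difference 1.09, SE 0.141, adjusted p 8.56e-05). The replicates again did not overlap. The death receptor Eda2r was higher in i12 (1.36) and i10 (1.87) and lower in d3 (-0.85). Mdm2, the ubiquitin ligase that limits p53, was higher in i12 (1.20) and i10 (1.48) and lower in i7 (-0.67), and the BH3-only gene Bbc3 was higher in i12 (1.33), i10 (1.81) and d3 (0.80).

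Genes of growth were lower in replicate 2 of the same 2 families. For ribosome biogenesis and MYC targets (21 tested), 12 were lower and 0 higher in i12 (median -0.48) and 11 lower and 0 higher in i10 (median -0.44), with 7 lower and 0 higher in d6, 5 lower and 1 higher in d3 and 0 lower and 2 higher in i7. Myc itself was at 18.4, 20 and 18.4 CPM in replicate 1 and 5.15, 3.68 and 3.66 CPM in replicate 2 of d3 (log2 difference -2.19, SE 0.255, adjusted p 1.32e-05). In i10 it was at 5.34 and 2.42 CPM and 0.302 and 0.395 CPM, and in i12 at 5.24 and 13.8 CPM and 0 and 0.708 CPM. Several of these values lie under the level of 3 counts (0.591 to 0.913 CPM in the replicate 2 libraries of i10), so no fold is given for i12 and i10, although both differences passed the test. The polyamine enzyme Odc1 was lower in d6 (-0.59), i12 (-0.72) and i10 (-0.85), and the nucleolar protein Ncl in the same 3 families (-0.55, -0.88 and -0.78). Of 22 DNA replication genes, 11 were lower and 0 higher in i12 and 10 lower and 0 higher in i10, against 1 and 2 in d3, 1 and 0 in d6 and 0 and 0 in i7. The G1/S cyclin Ccne1 was at 215 and 193 CPM in replicate 1 and 88.5 and 82.6 CPM in replicate 2 of i10 (log2 difference -1.25, SE 0.158, adjusted p 7.19e-05). The flap endonuclease Fen1 was lower in d3 (-0.45), d6 (-0.75), i12 (-0.82) and i10 (-0.76). Mitosis genes (24 tested) were called in smaller numbers, 6 higher in d3 (9 without the d3 parental line) and 7 lower in i12 the most.

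Lysosomal genes were higher where growth genes were lower. Of 20 tested members of the lysosome and TFE3 list, 9 were higher and 1 lower in i12 (median 0.43), and 11 higher and 0 lower in i10 (median 0.61). Counts in d3 and d6 were 6 higher and 0 lower, and 6 higher and 1 lower, and 0 were called in i7. The sialidase Neu1 was higher in d3 (0.55), d6 (0.74), i12 (1.09) and i10 (1.31). Heat shock genes (13 tested) were lower in d6 (7 lower, 0 higher, median -0.66), i12 (6 and 0, median -0.38) and i10 (4 and 0, median -0.29). The constitutive chaperone Hspa8 was at 6070 and 6892 CPM in replicate 1 and 2707 and 3250 CPM in replicate 2 of d6 (log2 difference -1.12, SE 0.127, adjusted p 3.18e-05), and it was lower in d3 (-0.52), i12 (-1.40) and i10 (-1.39). Its i7 libraries held 2759, 3068 and 4273 CPM and 2948, 2990 and 4317 CPM, with overlapping replicates. Sterol and fatty acid synthesis genes (34 tested) were lower in i12 (8 lower, 0 higher) and i10 (14 and 0), higher in d6 (7 higher, 0 lower) and called equally often both ways in d3 (8 and 8).

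Signalling genes were lower in several families, and pluripotency genes were called in small numbers in both directions. ERK pathway targets (10 tested) had 5 lower and 0 higher in d3 (median -0.79), 3 and 0 in d6, and 4 lower and 1 higher in i12 and in i10. The ERK phosphatase Dusp6 was lower in d3 (-1.69) and d6 (-1.23), at levels of 5.13, 4.76 and 5.08 CPM and 1.65, 1.53 and 1.45 CPM in d3, whereas its relative Dusp4 was higher in i12 (2.31) and i10 (3.63). Of 14 Wnt targets and mesendoderm genes, 5 were lower and 0 higher in i12 (median -0.67) and 3 and 0 in i10 (median -1.24), against 3 lower and 4 higher in d3. Of 6 BMP targets, 4 were lower and 0 higher in d3 (median -0.62). Eomes, a mesendoderm regulator, was lower in d3 (-3.21) and i12 (-1.69), and the Wnt target Axin2 in i12 (-1.61), i10 (-1.41) and d3 (-0.43). Of 16 naive pluripotency genes, 4 were higher and 4 lower in d3, 1 and 2 in d6, 1 and 1 in i7, 0 and 4 in i12 and 2 and 2 in i10. The orphan receptor Nr0b1 was the member called in all 5 families, always lower in replicate 2 (-0.93, -0.82, -0.47, -1.14 and -1.21 in d3, d6, i7, i12 and i10). Zfp42 (Rex1) was at 1468 and 1479 CPM in replicate 1 and 636 and 812 CPM in replicate 2 of i12 (log2 difference -1.03, SE 0.127, adjusted p 5.86e-05) and was lower in i10 as well (-1.05). Dppa3 (Stella), a maternal factor, was higher in d3, at 57.7, 58.6 and 62.9 CPM and 294, 183 and 169 CPM (log2 difference 1.80, SE 0.161, adjusted p 9.34e-07).

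The de novo DNA methyltransferase Dnmt3b was lower in 4 families. It was at 209.9, 226 and 218 CPM in replicate 1 and 97, 129 and 107 CPM in replicate 2 of d3 (log2 difference -0.99, SE 0.119, adjusted p 2.03e-05), and the values in d6, i12 and i10 were -0.82, -1.77 and -1.69. No replicate 2 library of d3 reached a replicate 1 level. Its cofactor Dnmt3l had log2 differences of -1.27, -1.19, -2.07 and -1.82 in those 4 families. Germline genes that promoter methylation holds silent (10 tested) were called higher or not at all: 4 in d3, 4 in d6, 2 in i12, 3 in i10 and 0 in i7. Sycp3, of the meiotic chromosome axis, was higher in d3 (1.99) and d6 (1.42), and Ddx4, the germ cell helicase, in d3 (1.83), d6 (1.39) and i10 (1.33). Imprinted genes (17 tested) had 7 lower and 1 higher in d3, 5 and 1 in d6, 5 and 1 in i12 and 4 and 0 in i10. Peg10 was at 52, 52.1 and 41.9 CPM in replicate 1 and 8.34, 12.6 and 10.3 CPM in replicate 2 of d3 (log2 difference -2.22, SE 0.19, adjusted p 6.25e-07), and H19 at 9.67, 16.8 and 7.45 CPM and 1.24, 0.988 and 0.341 CPM (log2 difference -3.73, SE 0.32, adjusted p 6.34e-07).

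Among the largest differences were genes outside these lists. Nt5e (CD73, an ectonucleotidase) was at 55.5, 57.6 and 55.9 CPM in replicate 1 and 5.97, 7.45 and 5.62 CPM in replicate 2 of d3 (log2 difference -3.15, SE 0.151, adjusted p 2.83e-09), and at 16.9 and 23.3 CPM and 1.1 and 1.01 CPM in d6 (log2 difference -4.26, SE 0.268, adjusted p 2.26e-07). The replicates were separate in both families. Both replicate 2 libraries of i10 listed 0 counts, so no fold is given there, while i7 held 5.65, 5.57 and 8.03 CPM and 5.57, 5.32 and 6.36 CPM with overlapping replicates. Tgm2, a transglutaminase, was at 27.9 and 23.5 CPM in replicate 1 and 143 and 113 CPM in replicate 2 of d6 (log2 difference 2.31, SE 0.149, adjusted p 1.67e-07) and was also higher in d3 (2.50), i12 (2.05) and i10 (1.50). Mat2a, which makes S-adenosylmethionine, was lower in the same 4 families, at 298 and 280.3 CPM and 99.9 and 99.6 CPM in d6 (log2 difference -1.53, SE 0.127, adjusted p 1.92e-06). Adssl1, an enzyme of AMP synthesis, had log2 differences of 2.98 in i12, 3.25 in i10, 2.13 in d3 and 2.00 in d6. In i10 it was at 5.53 and 6.77 CPM in replicate 1 and 55.6 and 61 CPM in replicate 2. The neuronal tubulin Tubb3 was lower in i12, at 93.5 and 91.9 CPM and 16.6 and 23.8 CPM (log2 difference -2.20, SE 0.227, adjusted p 1.65e-05), and in i10 (-2.57), and higher in d3 (0.57). The signalling protein Bmp4 was lower in d3 (-1.24), d6 (-0.80), i12 (-2.59) and i10 (-2.06).

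Some lists in d3 depended on the parental line that stood apart. Of 79 cytosolic ribosomal protein genes, 9 were higher and 3 lower in replicate 2 of d3, but 3 were higher and 15 lower without the d3 parental line, and the median moved from 0.12 to -0.07. Mitochondrial ribosome genes (74 tested) went from 14 higher and 1 lower to 5 higher and 12 lower, and nuclear respiratory chain genes (79 tested) from 20 and 1 to 13 and 6. The 11 proteins encoded by the mitochondrial genome had 7 lower and 0 higher in d3, and 3 lower and 0 higher without that line. In i12 and i10 the latter were higher in 3 of 11 genes. mt-Co1, the catalytic subunit of complex IV, was at 8419 and 9855 CPM in replicate 1 and 20530 and 18840 CPM in replicate 2 of i12 (log2 difference 1.11, SE 0.202, adjusted p 0.00122), while mt-Cytb of complex III had log2 differences of 0.04 and 0.13 in i12 and i10 that did not pass. The share of counts from the mitochondrial genome was 3.29% and 3.84% in replicate 1 and 5.12% and 5.51% in replicate 2 of i12. Over the 5 families the difference in this share averaged 0.646 percentage points (higher in 4 of 5, exact two-sided sign-flip permutation p = 0.312, adjusted 0.625 over 10 library measures). With 5 families this test cannot go below 0.0625. In i7 the difference was only 0.0103 points. In d6 the parental line went from 8.61% to 7.96% and clone 16 from 4.48% to 7.50%. The share of cytosolic ribosomal protein counts, taken without the mitochondrial genome, was higher in replicate 2 in 5 of 5 families, by 0.877 percentage points on average (exact permutation p = 0.0625, adjusted 0.312). In d6 this difference was only 0.00133 points. In d3 the parental line went from 6.83% to 9.55%, clone 12 from 6.93% to 6.80% and clone 21 from 6.90% to 6.92%. As a share of all counts it was higher in 4 of 5 families, by 0.784 points on average (exact permutation p = 0.125, adjusted 0.312).

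The snoRNA host genes, many of whose spliced RNAs are degraded after translation, were among the few groups called in i7. Of 8 tested, 3 were higher in replicate 2 of i7, 2 in d3, 2 in d6, 3 in i12 and 5 in i10, with 1 lower in i10. Without the d3 parental line 2 were higher and 1 lower in d3, and the d3 median moved from 0.14 to -0.02. Zfas1 was at 54.1, 47.4 and 79.9 CPM in replicate 1 and 85.4, 91.4 and 157 CPM in replicate 2 of the i7 lines (log2 difference 0.86, SE 0.136, adjusted p 0.00109), with no overlap, and Snhg8 was higher in d3 (0.66), i7 (0.62), i12 (0.78) and i10 (0.41).

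Most of what was called in i7 was of another kind. Pseudogenes, non-coding copies of genes, made up 370 of its 701 called genes: 18.8% of 1964 tested pseudogenes were called, against 2.15% of 12704 protein-coding genes. In d3 the shares were 13.0% and 31.7%, in d6 17.0% and 21.0%, in i12 9.37% and 22.2%, and in i10 9.93% and 19.9%. Of the 701 genes, 47.2% had over 90% of their counts on 1 allele, against 15.4% of all genes tested and 10.7% to 14.7% of the genes called in the other families. With protein-coding genes alone, 169 genes were called in i7, and with genes that had 10 to 90% of their counts on the 129S1 allele alone, 299. Both of these were chosen after the pattern was seen.

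**Figure D4:**
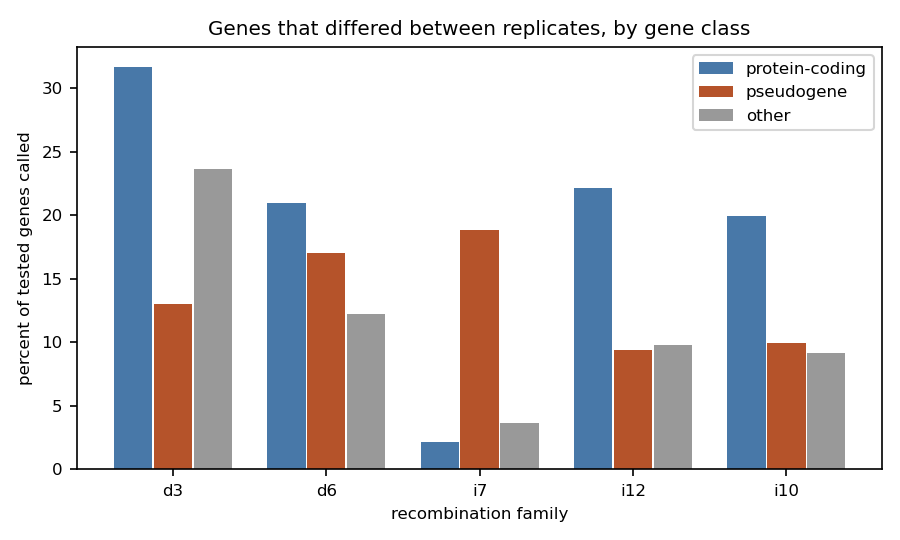
Percent of the tested genes of each class that were called between replicates in each family (16253 genes in all). Bars start at 0; in i7 the pseudogene bar (18.8%) stands above the protein-coding bar (2.15%), and in the other 4 families it stands below.

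The 2 alleles did not move together for these genes. Over 236 pseudogenes with counts on both alleles, the replicate differences of the 129S1 and CAST counts had an r of 0.05 to 0.07 across genes in the i7 lines and 0.12 and 0.23 in the d6 lines, against 0.73 to 0.77 in the i12 and i10 lines. In d3 it was 0.72 in the parental line, 0.57 in clone 21 and 0.24 in clone 12, which is as low as in the d6 parental line. For other genes the same measure was 0.40 to 0.50 in i7, 0.72 to 0.79 in d6 and 0.73 to 0.77 in i12 and i10. A separate edgeR fit of the 129S1 to CAST ratio over 10795 genes called 356 genes with unequal ratios between replicates in i7 (3.3%), of which 154 were pseudogenes out of 519 tested. It called 151 in d6 (1.4%, 51 pseudogenes), 214 in d3 (1.98%, 15 pseudogenes), 7 in i12 (0.0648%) and 10 in i10 (0.0926%).

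Some pseudogenes separated the same libraries. Rps27a-ps1, a copy of the ribosomal protein gene Rps27a chosen after its values were seen, had 99.8% of its counts on the CAST allele, at 7.34, 8.87 and 20.6 CPM in replicate 1 and 50.2, 69.7 and 69.5 CPM in replicate 2 of the i7 lines (here CPM of all counts, without scaling factors). It was at 20.1 and 68.3 CPM in replicate 1 and 9.77 and 11.8 CPM in replicate 2 of d6, and at 45.6 to 88.3 CPM in all libraries of d3, i12 and i10. Rpsa-ps5, a copy of Rpsa, went the other way on the 129S1 allele, at 91.3, 105 and 36 CPM in replicate 1 and 11.5, 10.2 and 8.07 CPM in replicate 2 of i7 and at 27.6 and 7.03 CPM and 80.1 and 31.5 CPM in d6. For both copies the 3 replicate 1 libraries of i7, both libraries of the d6 parental line and replicate 2 of d6 clone 16 stood together. Over 808 pseudogenes, the first component of their log2 levels held 49.5% of the variance, and these 6 libraries had loadings of 0.206 to 0.454, against -0.184 to 0.0221 in the other 18.

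A pair of protein-coding genes with close copies was called in i7. Actb, cytoplasmic β-actin (chromosome 5, 142903115 to 142906754, minus strand), had most of its counts on the CAST allele, at 1130, 1140 and 856 CPM in replicate 1 and 309, 262 and 249 CPM in replicate 2 of i7 (log2 difference -1.93, SE 0.26, adjusted p 0.000274). The d6 parental line held 966 and 1160 CPM in its 2 libraries and replicate 2 of d6 clone 16 held 666 CPM. Replicate 2 of the d3 parental line, which is not among the 6 libraries, held 835 CPM, so Actb did not separate the 6 from the rest. Its 129S1 counts did not exceed 5.54 CPM in any library. Uqcrh, a subunit of complex III, was higher in replicate 2 of i7 (log2 difference 1.27, SE 0.169, adjusted p 0.000249), lower in d6 (-1.42), i12 (-0.70) and i10 (-0.77), and its counts were also almost all on the CAST allele. Genes with near-identical copies share reads, and how reads were divided between copies and alleles is not given in the sources used here, so levels of Actb, Uqcrh and the pseudogenes are uncertain. For 130 genes with 171 tested pseudogenes of the same name, the median absolute log2 difference in i7 was 0.136 for the gene, 0.369 for its pseudogenes summed and 0.122 for the sum of both. The sum of both was below the gene in the other families too. It was 0.171 against 0.178 in d3, 0.151 against 0.152 in d6, 0.239 against 0.242 in i12 and 0.264 against 0.282 in i10. The part of the counting in these differences was not tested.

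**Figure D5:**
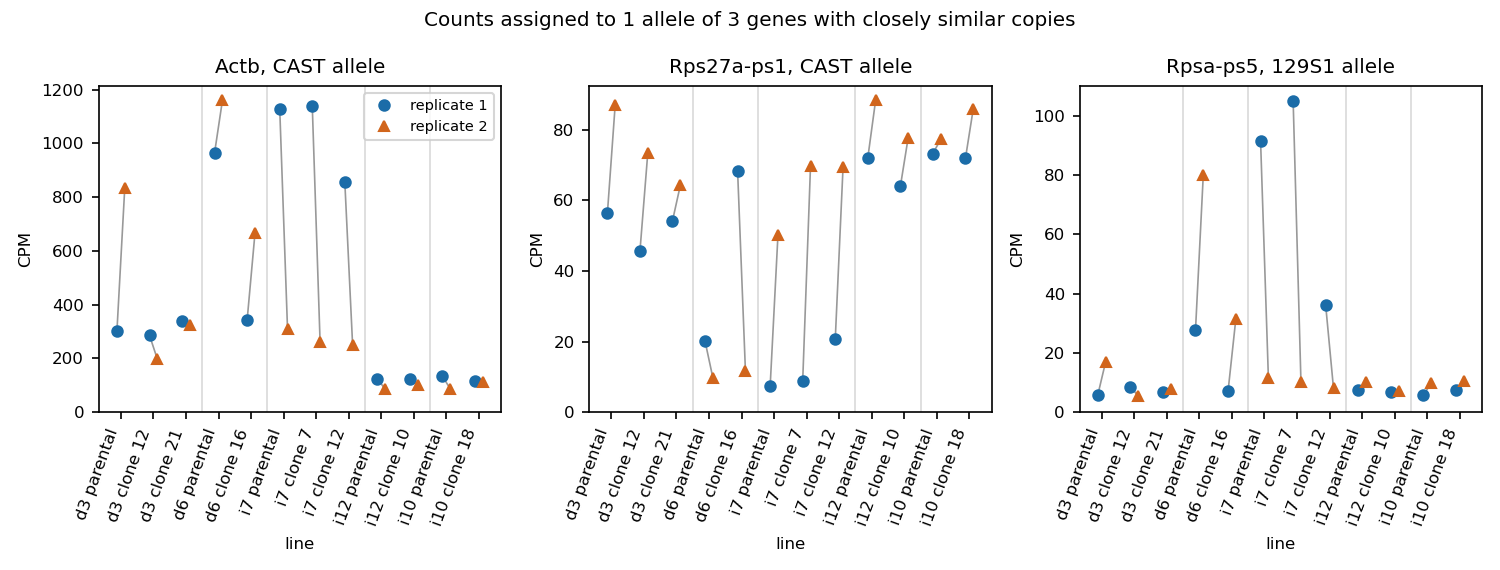
CPM of counts assigned to 1 allele for Actb and Rps27a-ps1 (CAST) and Rpsa-ps5 (129S1) in replicate 1 (circles) and replicate 2 (triangles) of the 12 lines; axes start at 0. The 3 replicate 1 libraries of i7 are high for Actb and Rpsa-ps5 and low for Rps27a-ps1, and for the 2 pseudogenes both d6 parental libraries and replicate 2 of d6 clone 16 lie on the same side. For Actb, replicate 2 of the d3 parental line (835 CPM) is high as well.

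Chromosome medians differed little between replicates. The median log2 difference of a chromosome lay between -0.134 and 0.164 in every line, with both limits from the d3 parental line, and the median difference of the 129S1 to CAST ratio between -0.103 and 0.132. The upper limit of the ratio was chromosome 14 of the i12 parental line, whose total median (0.056) was also the highest of that line. Chromosome 8 came next there, with a ratio difference of 0.076 and a total median of 0.050. The lower limit was the X chromosome of d6 clone 16. A change of copy number in a part of the cells was not tested.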

How the data were processed

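Per the labels' protocols, polyadenylated RNA was made into stranded libraries and sequenced as single-end reads. The submitters' processing notes name STAR, SAMtools and mm10. The program that counted reads, its annotation and the assignment to alleles are not given in the sources used here. The authors deposited raw counts per gene and allele, and the 129S1 and CAST counts were summed. Of 48985 gene IDs, 48838 matched a GENCODE M21 entry without the version; the table holds no unassigned row.

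Counts were fitted with edgeR 4.0.16 (R 4.3.3; TMM factors, filterByExpr over the 12 lines) by a quasi-likelihood model with 12 line terms and 5 replicate differences, 1 per family. This left 7 residual degrees of freedom and a biological coefficient of variation of 0.119. P-values were Benjamini-Hochberg adjusted over all 16253 genes at 0.05. Levels (CPM) are counts relative to the TMM-scaled library total. The labels do not say that the duplicates came from separate cultures, so p-values measure the spread of the replicate difference between lines, which share a family and may share handling. The pairing within line is by the labels, since both libraries of a pair come from the same cell line. The 129S1 to CAST ratio was fitted in the same way where each allele's mean count reached 10. Library shares were tested by exact sign flips over families. Scripts were tested on simulated data. Promoter sequences are from RefSeq (GRCm38.p6).

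The members and gene lists were chosen with earlier results of these data known. Genes were named by rule: per family, among called genes whose mean count reached 50, with the same direction in every line, the 4 largest differences each way, the 5 smallest p of the joint test and of the mean, and up to 4 members of each list with the smallest joint p. Naming all genes called in at least 4 families was planned and not done. Genes with Gm or Rik names or no symbol of their own are counted and not described. Other list members were named after their values were seen. Alternatives were DESeq2 1.42.0, other scaling factors, other filters, each allele alone, thinned libraries, length and GC offsets, no line term, each family alone and each line left out. Protein-coding genes alone and genes with 10 to 90% of counts on the 129S1 allele alone were added after seeing the data.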

Additional observations from a re-analysis of the deposited data

Results flagged for a closer look

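The effect of replicate number differed between families for 4017 genes in the joint edgeR test, and for 560 genes the difference was called higher in one family and lower in another. Of the 560, 207 were pseudogenes, for which the division of reads between copies and alleles is uncertain. The genes named by rule for which this held are given here with their log2 differences (replicate 2 minus replicate 1) in d3, d6, i7, i12 and i10, in that order, and the adjusted p of the test that the 5 differences are equal. No explanation was tested.

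The metallothionein Mt2 had 3.64, 1.89, -0.69, -1.26 and -0.51 (adjusted p 1.21e-07). The hypoxia-induced Ndufa4l2 had 3.19, 3.30, -0.38, -1.24 and -0.40 (adjusted p 1.27e-06). The stress-responsive Ndrg1 had 2.66, 2.46, -0.53, 0.46 and 0.11 (adjusted p 1.02e-07). The mitophagy receptor Bnip3 had 1.67, 1.45, -0.65, -1.93 and -1.51 (adjusted p 1.27e-06). The pseudokinase Trib3 had 2.63, 2.09, -0.08, 0.42 and -0.85 (adjusted p 9.09e-07). The lactate exporter Slc16a3 had 0.59, 0.25, -0.30, -1.78 and -2.43 (adjusted p 0.000209). These 6 genes were highest relative to replicate 1 in d3 or d6. The neuronal tubulin Tubb3 had 0.57, -0.18, 0.02, -2.20 and -2.57 (adjusted p 5.73e-06). The p53 target Ccng1 had -0.52, -0.36, 0.15, 1.26 and 1.48 (adjusted p 1.74e-05), and the p53 target Eda2r had -0.85, -0.28, 0.16, 1.36 and 1.87 (adjusted p 2.29e-05). The thioredoxin reductase Txnrd1 had -0.64, -0.62, 0.20, 0.34 and 0.37 (adjusted p 0.000127), the cytokinesis motor Kif23 had 0.45, 0.34, -0.17, -0.29 and -0.45 (adjusted p 0.00195), and the mitochondrial ribosome protein Mrpl12 had 0.45, 0.12, 0.01, -0.67 and -0.69 (adjusted p 0.00244). For genes with close copies elsewhere in the genome, where the division of reads is uncertain, the complex III subunit Uqcrh had 0.09, -1.42, 1.27, -0.70 and -0.77 (adjusted p 3.06e-05), the ribosomal protein gene Rpl10l had 0.22, 0.50, -0.45, -0.84 and -0.87 (adjusted p 0.000447), the aldolase copy Aldoart2 had -0.11, 1.35, -1.78, -1.06 and -0.57 (adjusted p 0.000442), and the olfactory receptor gene Olfr1388 had -0.29, 0.96, -1.72, -0.03 and 1.25 (adjusted p 0.000658).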

How the results depend on the processing

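Replicate numbers pair libraries only within a line, so the line term stands as the block. Without the block (family in place of line, unpaired) 395 genes were called in i7 instead of 701, and the counts of the other families, between 2283 and 3786, stayed within 1.5 times. With no filter on low counts, 1070 genes were called in i7 and 16 for recombined minus parental lines. The 129S1 counts alone gave 2089 in d6, 2057 in i12 and 1880 in i10, and the CAST counts alone 2068 in i12 and 1842 in i10. Libraries thinned to 3286819 counts gave 2743 in d3, 1781 in d6 and 443 in i7. Protein-coding genes alone gave 169 and balanced genes alone 299 in i7. Fitting the libraries of each family alone, with only 1 or 2 residual degrees of freedom, gave 1542 in d3, 2713 in i7, 4783 in i12 and 5132 in i10. The cause of these shifts was not tested, except that fewer genes or counts enter by construction. Leaving out 1 line at a time, d3 had 3637 to 4879 called genes, d6 had 524 to 4950, i7 had 166 to 1854, i12 had 698 to 4593 and i10 had 561 to 4382, with 6261 to 9567 for any family, 5628 to 8077 for the mean, 2449 to 6585 for differing families and 0 to 0 for recombined minus parental lines. The mean difference in the pseudogene share was -0.039 percentage points and 0.018 without mitochondrial counts (exact permutation p = 0.812 and 0.875). Other scaling factors moved the median gene by at most 0.0252 on the log2 scale. Of 4185 alternative values for 170 pairs of a named gene and a comparison, 4057 kept direction and side of the threshold, 121 lost the call, 7 gained it and 0 reversed. Most of these genes were named because they were called, so reversals were unlikely from the start. Many of the values also come from leaving out a line of a family other than the one compared. Leaving out the i10 parental line cost 17 calls, nearly all in i10, and leaving out the i12 parental line cost 11, all in i12. Libraries of i12 and i10 held the fewest counts, so genes under about 1 CPM there rest on a few counts.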
